A study of Homo sapiens with 11 samples.

Results

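The cluster of miR-183, miR-96 and miR-182 is a group of 3 miRNA genes that are read as 1 primary transcript, and 4 of its mature products were followed here: hsa-miR-183-5p, hsa-miR-183-3p, hsa-miR-96-5p and hsa-miR-182-5p. They were chosen by name, as 4 of the 2576 mature miRNAs in both count tables. The cells were SH-SY5Y, a human neuroblastoma line derived from SK-N-SH that takes on neuronal features under all-trans retinoic acid (ATRA). All libraries came from cells given ATRA for 7 days, controls included. In co-treatment, 3 libraries had 10 µM H2O2 present throughout those 7 days and 3 controls had none. In pre-treatment, 3 libraries came from cells exposed to 10 µM H2O2 for 72 h, which was taken away before ATRA began, and 2 controls had ATRA without H2O2. Replicates are described as biological and come from a single cell line, so the tests below measure the spread between these cultures.

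The 3 genes of the cluster are cut from their shared transcript by Drosha and Dicer, and each hairpin can give a 5p and a 3p arm. The cluster is known from sensory organs, where its miRNAs are abundant in photoreceptors, in the hair cells of the inner ear and in sensory neurons, and changes in the seed of miR-96 cause hereditary hearing loss. The seed, bases 2 to 8 of a mature miRNA, is the stretch that pairs with target mRNAs. Because the 3 miRNAs start from 1 transcript, a change in its transcription alone would move them by the same factor, and the question put to these data was whether they moved as a unit.

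The mature sequences are shown because the 3 main arms are near copies in the seed but differ elsewhere, and because a miRNA from another chromosome shares 1 of these seeds. They are given 5′ to 3′ from RefSeq (GRCh38.p14), with the seed in capitals.
hsa-miR-183-5p: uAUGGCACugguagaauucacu
hsa-miR-96-5p: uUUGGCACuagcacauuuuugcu
hsa-miR-182-5p: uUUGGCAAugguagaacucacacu
hsa-miR-183-3p: gUGAAUUAccgaagggccauaa
hsa-miR-1271-5p: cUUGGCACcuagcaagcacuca

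The 3 main arms were identical at position 1 and at positions 3 to 7, counted from the 5′ end, where all read UGGCA. Outside the first 8 bases, miR-183-5p and miR-182-5p matched at 12 further positions, against 6 for miR-183-5p and miR-96-5p and 5 for miR-96-5p and miR-182-5p. No 2 of the members had the same 7-base seed. Among the 2262 miRNAs in the tables with a mature sequence in RefSeq, hsa-miR-1271-5p was the only other miRNA with the seed of a member, that of miR-96-5p. Position by position it matched miR-96-5p at 2 positions outside the first 8. These counts allow no gaps, so a stretch shared at a shift is not counted. After the seed both miRNAs hold the letters uagca, which in miR-1271-5p are shifted by 1 base.

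In GRCh37, the build named hg19 in the submitters' processing notes, the 3 hairpins lie on the minus strand of chromosome 7. MIR183 spans 129414745 to 129414854, MIR96 spans 129414532 to 129414609, and MIR182 spans 129410223 to 129410332. MIR183 and MIR96 are 135 bases apart, and MIR182 follows after a further 4199 bases, so the cluster covers 4632 bases. All 3 hairpins fall in introns of the annotated lncRNA ENSG00000286380, which runs from 129402900 to 129420060 on the same strand. MIR1271 lies on the plus strand of chromosome 5, from 175794949 to 175795034.

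Library totals ran from 5343953 to 8927582 counts, and 3 counts, used as the limit of detection, were worth 0.336 to 0.561 CPM. CPM is a count scaled to a common library total, here by trimmed mean of M-values (TMM) within each experiment, so levels are compared inside an experiment and are only set side by side across them. Of 8 miRNAs listed as neuronal or neuroblastoma markers, 7 were above 3 counts in every library, while miR-124-3p, a defining neuronal miRNA, had at most 7 counts and was at 0 in the 3 co-treatment H2O2 libraries. The summed level of this list was 38582 to 41132 CPM in co-treatment controls and 18197 to 22558 CPM in co-treatment H2O2 libraries. It was 14242 and 24999 CPM in pre-treatment controls and 30784 to 37982 CPM after pre-treatment with H2O2. Most of each sum was miR-137, at 31161 to 33224 CPM in co-treatment controls and 13618 to 17556 CPM in co-treatment H2O2 libraries. The sums therefore do not speak for every miRNA of the list. In co-treatment miR-128-3p overlapped between groups, at 1451 to 1928 CPM in controls and 1625 to 1778 CPM with H2O2. The 2 pre-treatment controls were less alike (Pearson r of log2 CPM across miRNAs 0.942) than any pair of pre-treatment H2O2 libraries (0.990 to 0.993). Pre-treatment control 1 held 135 CPM of the epithelial miR-205-5p and 72.5 CPM of the myeloid miR-223-3p, against 4.88 and 0.610 CPM in control 2. The members' pre-treatment log2FC, ratios and summed level are therefore given with and without it. The likeness values and the context lists are given only with it, so how far they depend on it is not shown. The summed epithelial list was 201 CPM in control 1 and 72.9 to 104.8 CPM elsewhere, and the white blood cell list was 113 CPM in control 1 and 9.83 to 21.7 CPM elsewhere. These sums include the values of miR-205-5p and miR-223-3p just given. The other epithelial miRNAs went both ways. In controls 1 and 2 miR-141-3p had 10.6 and 7.17 CPM, and miR-200a-3p had 2.95 and 6.10 CPM. Of the white blood cell list, miR-142-3p was also higher in control 1, at 24.4 against 9.45 CPM. In pre-treatment the liver miRNA miR-122-5p went from 92.5 and 261 CPM in controls to 537 to 788 CPM with H2O2, and the red blood cell list from 2.01 and 3.81 CPM to 10.2 to 14.2 CPM. That list did not move together. Its miR-451a and miR-144-5p were higher in every H2O2 library than in both controls, while miR-144-3p and miR-486-5p overlapped. For miR-486-5p the controls had 1.07 and 1.22 CPM and the H2O2 libraries 0.702, 1.36 and 0.398 CPM. The source of the epithelial, blood cell and liver miRNAs in these cultures of a single cell line was not tested. The part of these differences in the results below was not tested either. Within the cultured cells, fewer cells of a type and less RNA per cell cannot be told apart in bulk samples.

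All 3 main arms were detected in all 11 libraries at moderate levels, with miR-182-5p above miR-183-5p and miR-183-5p above miR-96-5p in 10 libraries. In pre-treatment control 1, miR-183-5p (173 counts) and miR-182-5p (168 counts) were level. By mean CPM in co-treatment controls, miR-182-5p ranked 252, miR-183-5p 317 and miR-96-5p 416 among the 790 miRNAs tested there. In pre-treatment controls the ranks were 277, 293 and 552 of 868. A mature miRNA is read whole, so these counts need no correction for length, but ligation favours some ends over others and the order of 2 miRNAs can carry that.

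The 3p arms stood at the limit of detection. Over the 11 libraries MIR183 gave 2466 counts of its 5p arm and 4 of its 3p arm, a 3p share of 0.162% (exact binomial 95% interval 0.0441 to 0.414%). The library counts of miR-183-3p were 0, 1 and 0 in co-treatment controls, 0 in each co-treatment H2O2 library, 0 and 1 in pre-treatment controls, and 0, 2 and 0 in pre-treatment H2O2 libraries. It passed the filter on low counts in neither experiment, so 3 of the 4 members were tested. The other hairpins were as one-sided: MIR96 gave 635 counts of 5p and 2 of 3p (0.314%, interval 0.0380 to 1.13%), and MIR182 gave 3754 and 5 (0.133%, interval 0.0432 to 0.310%). These intervals cover counting error only.

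**Figure D1:**
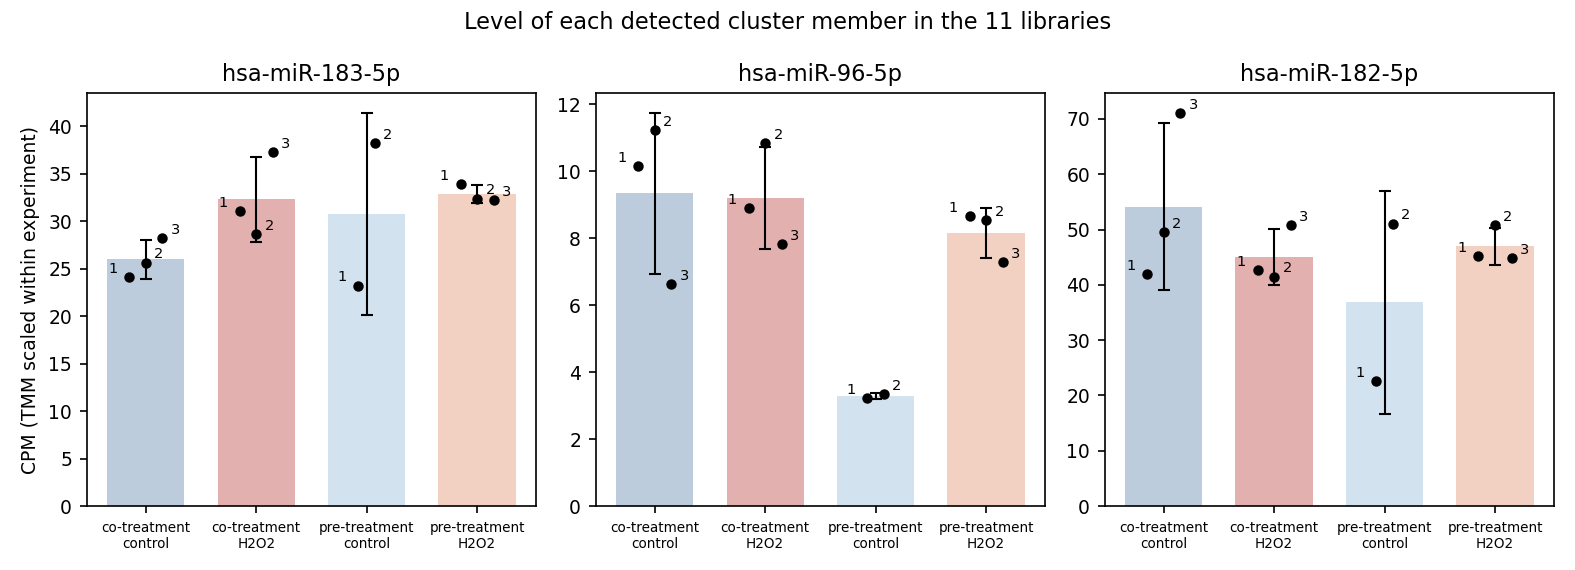
Level of the 3 detected members in each library, as TMM-scaled CPM on axes that start at 0. Points are libraries with their replicate numbers, bars are group means and error bars are SD (3 libraries a group, 2 in pre-treatment controls). The miR-96-5p bars stand at 3.29 CPM in pre-treatment controls and 8.16 CPM in pre-treatment H2O2 libraries.

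Of the 3 members tested in co-treatment, 0 were called by the edgeR exact test (FDR below 0.05 and log2FC beyond 0.6 in either direction), where 26.2% of all 790 miRNAs were called (207, with 10.6% raised and 15.6% lowered). The edgeR quasi-likelihood test also called 0 of the 3, against 181 of all miRNAs (22.9%). At an unadjusted p below 0.05 none of the 3 passed either test, while 312 of all 790 miRNAs passed the quasi-likelihood test. The members' log2FC values spread from -0.27 to 0.31 around a median of -0.03, and the median of all tested miRNAs was -0.04. The members thus lay on both sides of 0 and near the centre of all miRNAs.

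For hsa-miR-183-5p, the first hairpin of the transcript, co-treatment controls had 24.1, 25.6 and 28.2 CPM and H2O2 libraries had 31.1, 28.6 and 37.3 CPM. All H2O2 libraries were above all controls, and in this experiment the groups did not overlap for 41.6% of all miRNAs tested, 19.5% with H2O2 higher and 22.2% with H2O2 lower. The means were 26.0 ± 2.06 CPM in controls and 32.3 ± 4.46 CPM with H2O2 (SD, n = 3 each), and the log2FC of 0.31 (SE 0.26) had an exact test FDR of 0.427. Its quasi-likelihood 95% interval ran from -0.24 to 0.87, so at this spread and depth neither a rise nor a fall was resolved.

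For hsa-miR-96-5p, the member best known from the inner ear, controls had 10.2, 11.2 and 6.64 CPM and H2O2 libraries had 8.91, 10.8 and 7.83 CPM. The groups overlapped and control 3 was the lowest library. The log2FC was -0.03 (SE 0.32, exact test FDR 0.989, 95% interval -0.70 to 0.65), and DESeq2, library size and RLE scaling gave 0.016 to 0.069.

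For hsa-miR-182-5p, the last hairpin, controls had 41.9, 49.6 and 71.1 CPM and H2O2 libraries had 42.7, 41.5 and 50.8 CPM. The groups overlapped, and control 3 stood above the other 5 libraries. The log2FC was -0.27 (SE 0.28, exact test FDR 0.532, 95% interval -0.85 to 0.32), and without control 3 it was 0.07.

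The base composition of a miRNA moved with its co-treatment log2FC. The 3 members have GC contents of 39.1 to 41.7%, below the median of 47.8% of the 436 miRNAs that had a sequence and averaged 5 CPM or more. Over those miRNAs, GC content and log2FC had a Pearson r of 0.598, and miRNAs under 45% GC had a median log2FC of -0.75 (146 miRNAs). A quasi-likelihood fit with an offset for GC content was run over the 363 such miRNAs that averaged 10 CPM or more. There miR-183-5p had a log2FC of 0.92 (FDR 0.0450) and was called, where 24 of the 363 were called. The same fit without the offset gave it 0.57 (FDR 0.0807) and called 126 of the 363. With the offset and replicate number as a block, miR-183-5p had 0.90 (FDR 0.148) and 0 miRNAs were called. For miR-182-5p the log2FC was 0.31 with the offset and -0.0043 without it. In pre-treatment the relation had the opposite sign (r -0.41 over 428 miRNAs, median log2FC 0.49 under 45% GC). The part of GC content in the members' values beyond these fits was not tested.

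In pre-treatment, 1 of the 3 members was called by the exact test, hsa-miR-96-5p, where 15.3% of all 868 miRNAs were called 5.41% as raised and 9.91% as lowered. Controls had 3.22 and 3.35 CPM (24 and 22 counts) and H2O2 libraries had 8.66, 8.54 and 7.30 CPM (74, 63 and 55 counts). Every H2O2 library was above both controls, while over all miRNAs tested 46.0% had no overlap, 23.3% with H2O2 higher and 22.7% with H2O2 lower. The controls were nearly equal in miR-96-5p although they differed in other miRNAs, but 2 values of 24 and 22 counts give little measure of spread. The mean was 8.16 ± 0.754 CPM (SD, n = 3) against 3.29 ± 0.0939 CPM (n = 2), a 2.48-fold difference, and the log2FC was 1.31 (SE 0.35, exact test FDR 0.0347, quasi-likelihood 95% interval 0.49 to 2.13).

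The call of miR-96-5p lay near the threshold, while its log2FC was positive under every alternative. The quasi-likelihood test gave the same log2FC with an FDR of 0.0660, and it called 1.96% of all miRNAs (17, against 133 by the exact test). The log2FC was 1.32 without control 1 (FDR 0.00352) and 1.31 without control 2 (FDR 0.00325), where the lone control was taken to vary like the H2O2 libraries, but leaving out H2O2 library 1, 2 or 3 gave FDR 0.237, 0.234 and 0.155. Over miRNAs that averaged 5 CPM or more, the quasi-likelihood log2FC was 1.14 (FDR 0.0523) without and 0.82 (FDR 0.139) with an offset for GC content.

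For hsa-miR-183-5p, pre-treatment controls had 23.2 and 38.3 CPM and H2O2 libraries had 33.9, 32.4 and 32.2 CPM. The 3 H2O2 libraries lay close together between the 2 controls. The log2FC was 0.10 (SE 0.34, exact test FDR 0.927, 95% interval -0.70 to 0.89).

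For hsa-miR-182-5p, pre-treatment controls had 22.6 and 51.1 CPM and H2O2 libraries had 45.3, 50.8 and 44.8 CPM. Control 1 was far below the H2O2 libraries and control 2 was at their upper edge. The log2FC was 0.35 (SE 0.40, exact test FDR 0.691, 95% interval -0.60 to 1.31). It was -0.08 without control 1, and 1.03 without control 2 (FDR 5.83e-04, called), so its value rested on which control was used. The same held less strongly for miR-183-5p, with -0.18 and 0.47.

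**Figure D2:**
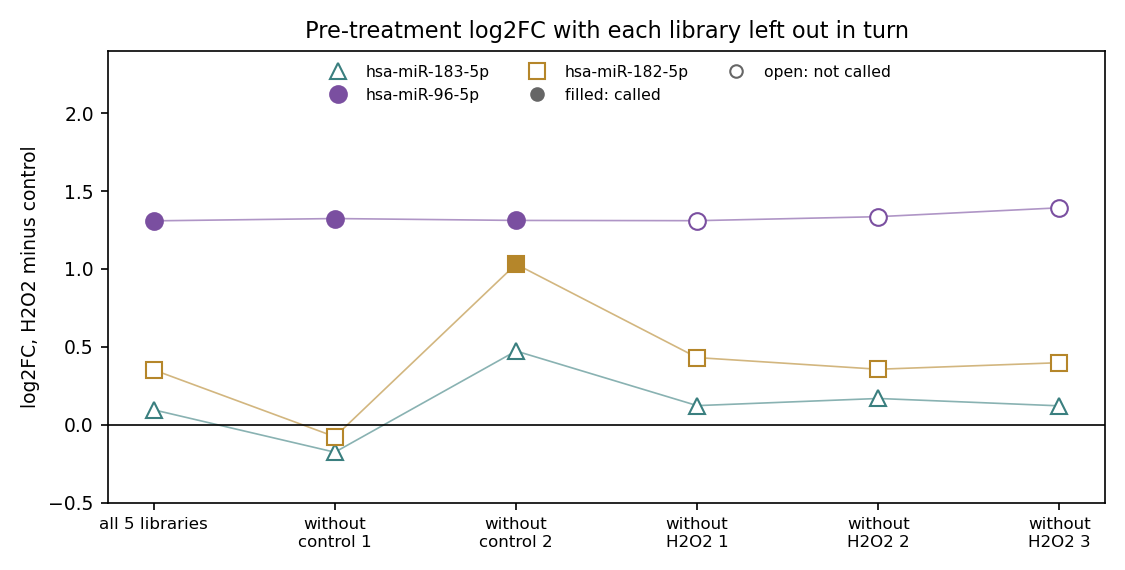
Pre-treatment log2FC (H2O2 minus control) of the 3 members with all 5 libraries and after leaving out any 1 of them, filled symbols being called by the exact test. miR-96-5p stays between 1.31 and 1.39, while miR-182-5p goes from -0.08 to 1.03 with the control that is left out.

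The median log2FC of the 3 members in pre-treatment was 0.35, and that of all 868 tested miRNAs was -0.19. The miR-96-5p response was set against its co-treatment response in a quasi-likelihood fit of all 4 groups, which scales the 11 libraries together. There the log2FC of miR-96-5p was 1.16 in pre-treatment and 0.12 in co-treatment, a difference of 1.04 (SE 0.45, 95% interval 0.07 to 2.01, FDR 0.0899) that did not pass 0.05 after adjustment over 764 miRNAs. Of those 764, 32.1% passed. The difference was -0.47 for miR-183-5p (95% interval -1.25 to 0.31, FDR 0.332) and 0.40 for miR-182-5p (95% interval -0.56 to 1.35, FDR 0.504). So the call of miR-96-5p in pre-treatment alone is not by itself a difference between the 2 ways of exposure.

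**Figure D3:**
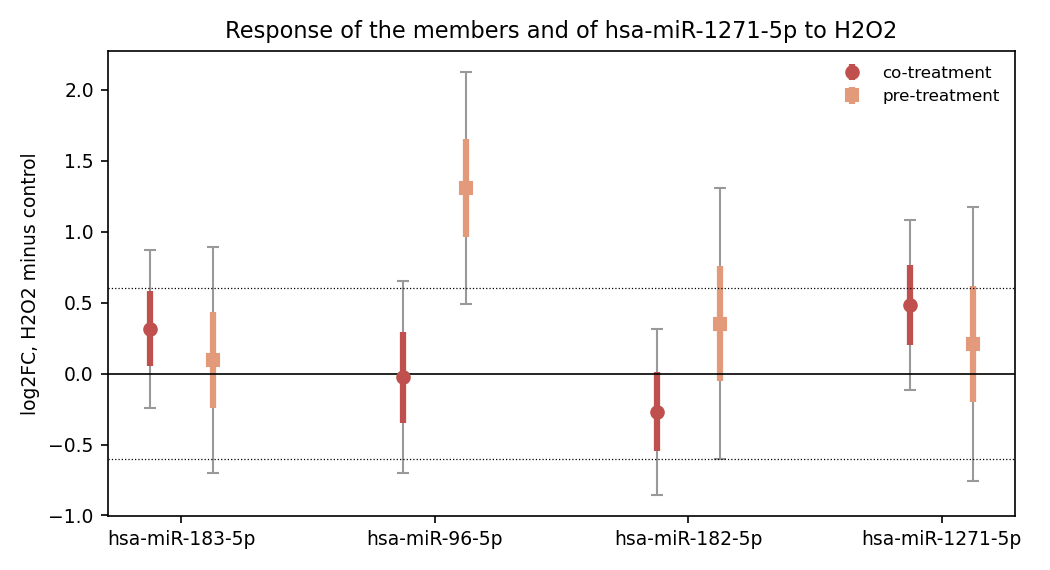
log2FC (H2O2 minus control) of the 3 tested members and of hsa-miR-1271-5p in co-treatment (circles) and pre-treatment (squares), with SE as thick bars and quasi-likelihood 95% intervals as thin bars. Dotted lines mark a log2FC of 0.6 in either direction, and the interval of miR-96-5p in pre-treatment, 0.49 to 2.13, is the only 1 that does not include 0.

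Whether the members moved as a unit was asked from their ratios inside each library, which need no scaling. Each ratio was compared between H2O2 and control by a two-sided exact permutation test, 8 tests in all, in which the smallest p the design allows is 0.1 in co-treatment and 0.2 in pre-treatment. No test could therefore reach 0.05, and the ratios are described by their overlap and size.

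In co-treatment, the ratio of miR-182-5p to miR-183-5p counts was 1.74, 1.93 and 2.52 in controls and 1.38, 1.45 and 1.36 in H2O2 libraries. All H2O2 libraries were below all controls. The mean log2 ratio was 1.02 ± 0.28 in controls and 0.48 ± 0.05 in H2O2 libraries (SD, n = 3 each), a difference of -0.54 (exact permutation p = 0.1, adjusted 0.4). The widest gap among the controls was that between control 3 and the others.

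The other ratios of co-treatment overlapped. The log2 ratio of miR-96-5p to miR-182-5p differed by 0.24 (exact permutation p = 0.8, adjusted 0.914), and that of miR-96-5p to miR-183-5p by -0.31 (exact permutation p = 0.5, adjusted 0.667). With any 1 library left out the first ran from -0.20 (without control 3) to 0.48 (without control 1) and the second from -0.60 (without control 3) to -0.093 (without H2O2 library 3). In control 3 miR-96-5p was the lowest of the 6 libraries while miR-182-5p was the highest, at 48 and 514 counts.

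In pre-treatment, miR-96-5p was higher with H2O2 relative to both other members. Its ratio to miR-183-5p was 0.139 and 0.0877 in controls and 0.255, 0.264 and 0.226 in H2O2 libraries. Its ratio to miR-182-5p was 0.143 and 0.0657 in controls and 0.191, 0.168 and 0.163 in H2O2 libraries. Neither ratio overlapped between groups, with differences in log2 ratio of 1.15 and 0.82 (exact permutation p = 0.2 each, adjusted 0.4). The difference from miR-183-5p was 1.48 without control 1 and 0.82 without control 2, and that from miR-182-5p was 1.38 without control 1 and 0.26 without control 2. The ratio of miR-182-5p to miR-183-5p was 0.971 and 1.33 in controls and 1.33, 1.57 and 1.39 in H2O2 libraries, where control 2 and H2O2 library 1 met (difference 0.33, exact permutation p = 0.4, adjusted 0.64). That difference was 0.097 without control 1 and 0.56 without control 2. The ratio of miR-183-3p to miR-183-5p rested on 4 counts of the 3p arm in all and is not read here.

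**Figure D4:**
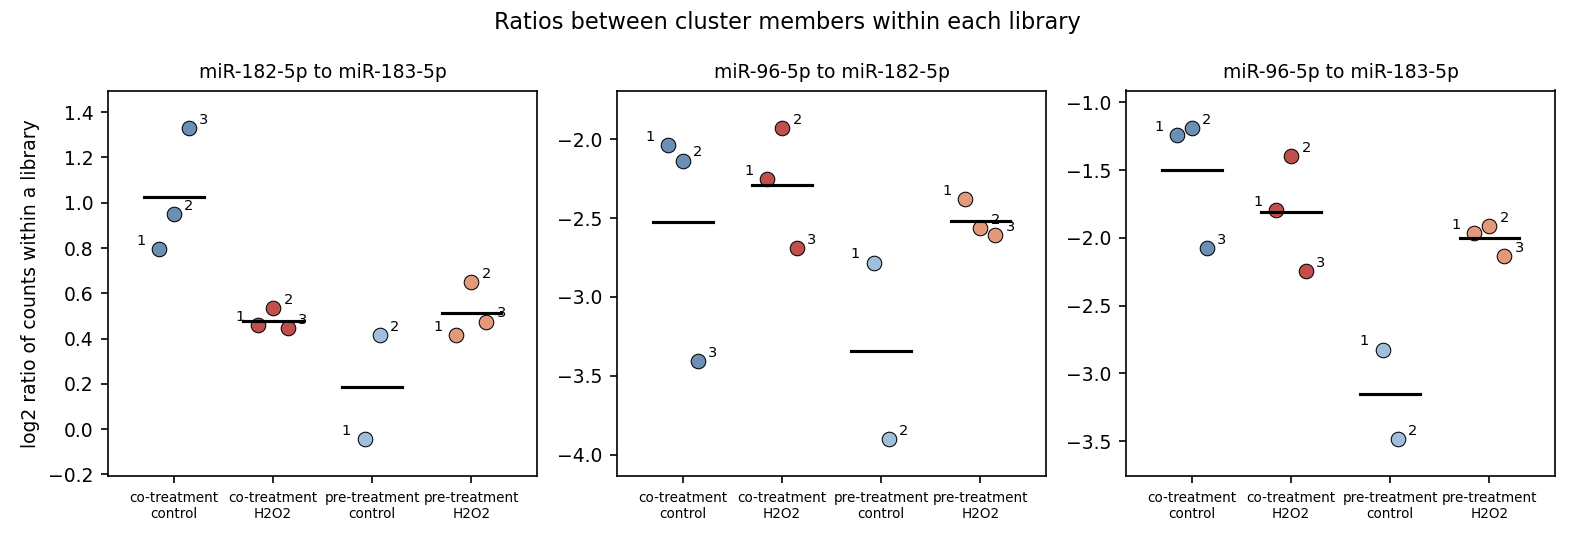
log2 ratio of the counts of 2 cluster members within each library, with replicate numbers and group means as lines. The ratio of miR-182-5p to miR-183-5p does not overlap between co-treatment groups (means 1.02 and 0.48), and the ratios of miR-96-5p do not overlap between pre-treatment groups.

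The summed level of the members was 76.2, 86.6 and 105.9 CPM in co-treatment controls (89.5 ± 15.1) and 82.7, 81.0 and 95.9 CPM in H2O2 libraries (86.5 ± 8.18, SD, n = 3 each). Within the sum, miR-182-5p made up 55.0 to 67.1% of the counts in controls and 51.3 to 53.0% with H2O2, and miR-183-5p made up 26.6 to 31.7% and 35.4 to 38.9%. The sum thus overlapped between groups while both shares did not.

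In pre-treatment the sum was 49.0 and 92.9 CPM in controls and 87.8, 92.0 and 84.4 CPM in H2O2 libraries (88.1 ± 3.85, n = 3). The share of miR-96-5p was 6.58 and 3.61% in controls and 8.65 to 9.85% with H2O2. The log2 difference of the mean sums was 0.31, and it was -0.08 without control 1 and 0.85 without control 2.

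Over the 11 libraries the pattern of miR-96-5p was unlike those of miR-182-5p and miR-183-5p, which were more alike to a degree that depended on the centring. For this the 11 libraries were TMM-scaled together and not within each experiment. With log2 CPM centred on the mean of each experiment, the Pearson r was 0.44 between miR-182-5p and miR-183-5p, -0.00 between miR-182-5p and miR-96-5p, and -0.13 between miR-183-5p and miR-96-5p. These are descriptions over libraries that share cells, kit and scaling, and both miR-182-5p and miR-183-5p were low in pre-treatment control 1. Among 492 miRNAs that averaged 5 CPM or more, miR-183-5p was the 113th most like miR-182-5p, and miR-96-5p the 250th. From the side of miR-183-5p, miR-182-5p was the 48th most like it and miR-96-5p the 318th. Centred on each of the 4 groups, which leaves only the spread between replicates, the values were 0.88, -0.72 and -0.73. The order of libraries was not the same for the members in every group: among pre-treatment H2O2 libraries, miR-183-5p and miR-96-5p were highest in library 1 and miR-182-5p in library 2.

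The miRNAs whose pattern was most like each member were different for each. For miR-182-5p they were miR-203b-3p (r 0.96), miR-126-3p (0.91) and miR-10b-3p (0.85). For miR-183-5p they were miR-664a-5p (0.88), miR-184 (0.85) and miR-425-3p (0.75). For miR-96-5p they were miR-138-5p (0.89), miR-2682-3p (0.89) and miR-5682 (0.86). None of the 9 is a member of the cluster. In pre-treatment miR-138-5p, a miRNA abundant in brain, had a log2FC of 1.03 (exact test FDR 0.0362), miR-2682-3p 1.31 (FDR 0.0133) and miR-5682 0.84 (FDR 0.233). The quasi-likelihood test gave them FDRs of 0.0645, 0.0559 and 0.178, so it called none of them. Centring on experiment keeps the difference between H2O2 and control, so a rise shared with miR-96-5p is part of how they were picked. Centred on each group, their r with miR-96-5p was 0.94, 0.63 and 0.39.

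hsa-miR-1271-5p shares the seed of miR-96-5p, and it was much the more abundant of the pair. In co-treatment controls it had 208, 270 and 139 CPM and in H2O2 libraries 302, 259 and 302 CPM. The groups overlapped in the single value of control 2. The log2FC was 0.48 (SE 0.28, exact test FDR 0.210, 95% interval -0.11 to 1.08). In pre-treatment it had 320 and 126 CPM in controls and 267, 252 and 254 CPM in H2O2 libraries, with the H2O2 libraries again between the 2 controls, and a log2FC of 0.21 (SE 0.41, exact test FDR 0.810, 95% interval -0.75 to 1.18).

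Of all counts with this seed, miR-96-5p gave 4.65, 3.99 and 4.56% in co-treatment controls and 2.87, 4.02 and 2.52% in H2O2 libraries. In pre-treatment it gave 0.998 and 2.60% in controls and 3.14, 3.27 and 2.79% in H2O2 libraries. The pre-treatment groups did not overlap, yet the summed level of the seed was 323 and 129 CPM in controls and 266 ± 8.39 CPM (SD, n = 3) in H2O2 libraries. The log2 difference of the mean sums was 0.23, and it was 1.04 without control 1, a value that is nearly all miR-1271-5p. The rise of miR-96-5p from about 3 to 8 CPM was thus small beside the difference of miR-1271-5p between the 2 controls.

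**Figure D5:**
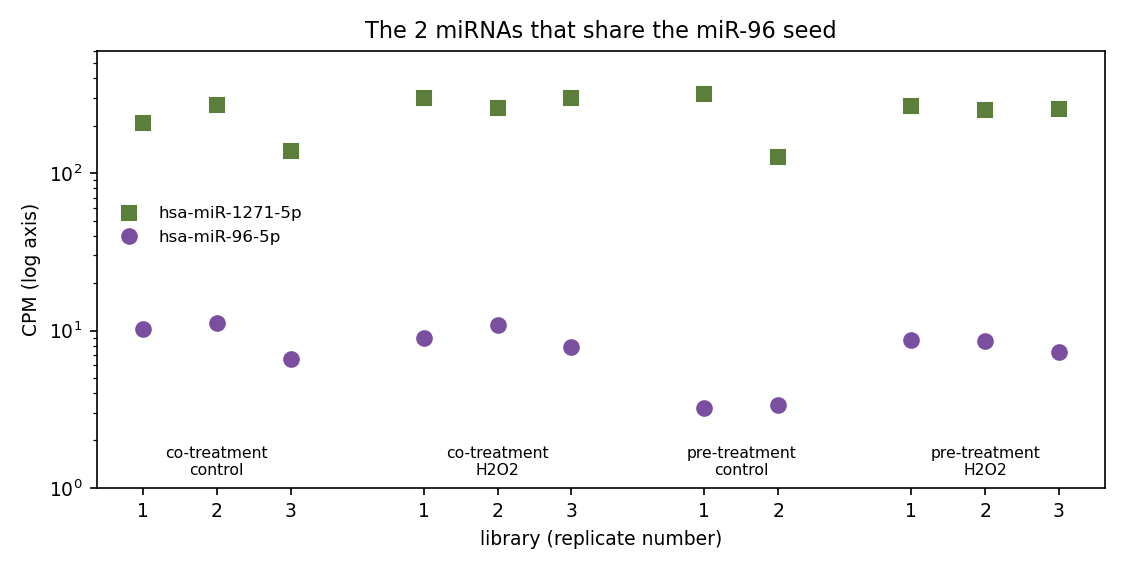
Level of the 2 miRNAs that share the miR-96 seed, in CPM on a log axis, for each library by group and replicate number. miR-1271-5p (squares, 126 to 320 CPM) lies above miR-96-5p (circles, 3.22 to 11.2 CPM) in all 11 libraries.

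Of 8 other miRNAs known from sensory organs and retina, 5 were tested in co-treatment, where 0 were called as raised and 1 as lowered, beside 10.6% raised and 15.6% lowered among all miRNAs: miR-9-5p, which promotes neurogenesis, had 2.30 ± 0.0607 CPM with H2O2 and 4.83 ± 1.58 CPM in controls (n = 3 each), a log2FC of -1.06 (exact test FDR 0.0493). The quasi-likelihood FDR of miR-9-5p was 0.0651. The list's median log2FC was -0.40, against -0.04 for all miRNAs.

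In pre-treatment 5 of the 8 were tested and 0 were called by the exact or the quasi-likelihood test, with 2 at an unadjusted p below 0.05 in each. Among all 868 miRNAs the exact test called 5.41% as raised and 9.91% as lowered, and the quasi-likelihood test called 1.96% and put 254 at an unadjusted p below 0.05. The 2 miRNAs of the list at an unadjusted p below 0.05 were miR-9-3p (log2FC 1.64, exact test FDR 0.0638) and miR-181b-5p (log2FC 1.21, exact test FDR 0.0504). The list's median log2FC was 0.44, against -0.19 for all miRNAs. miR-124-3p and miR-204-5p, a retinal pigment epithelium miRNA, were tested in neither experiment.

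Of 10 mature miRNAs listed from other genes of band 7q32, 8 were tested in each experiment, and both arms of miR-593 were at 0 counts. In co-treatment 0 were called as raised and 1 as lowered, miR-29b-3p (log2FC -1.78, exact test FDR 0.00157), which has a second gene on another chromosome. The test called 26.2% of all miRNAs there. In pre-treatment, where 15.3% of all miRNAs were called, 2 were called as raised, both arms of MIR335, which lies 721.1 kb from the cluster: miR-335-5p had 202 ± 28.03 CPM with H2O2 (n = 3) and 24.1 ± 11.5 CPM in controls (n = 2), a log2FC of 3.06 (exact test FDR 9.58e-07), and miR-335-3p had a log2FC of 2.26 (exact test FDR 9.38e-04). miR-129-1-3p, from a gene 1562 kb away, was called as lowered by the exact test (log2FC -2.98, FDR 0.000436) and not by the quasi-likelihood test (FDR 0.0520). Its controls were far apart, at 24.97 and 111 CPM, and its H2O2 libraries had 7.96 to 9.62 CPM. The medians of the list were -0.31 in co-treatment and 0.16 in pre-treatment.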

How the data were processed

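Small RNA libraries (QIAseq miRNA kit, NextSeq 500) of 11 SH-SY5Y cultures were used. Per the labels and the study's methods, the authors made the count tables with FastQC 0.11.8 for read quality, cutadapt 2.10 for trimming, Bowtie2 2.4.1 for alignment against hg19 and HTSeq 0.7.2 for counting mature miRNAs. The deposited counts were not normalised. Use of the kit's molecular identifiers, the miRNA annotation release and the treatment of multiply aligned reads were not given in the sources used here. 1 more pre-treatment control, removed by the authors as an outlier, was not analysed here. Deposited tables of the authors' own log fold changes, log CPM, p-values and FDR were not used.

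Here, in R 4.3.3, miRNAs were kept where 3 (co-treatment) or 2 (pre-treatment) libraries exceeded the CPM that 5 counts have in the smallest library, and were tested with edgeR 4.0.16 (TMM, exact test, Benjamini-Hochberg). SE and intervals came from its quasi-likelihood fit, and alternatives used DESeq2 1.42.0. Scripts were tested on simulated data. log2 ratios used 0.5 added counts and likeness used log2(CPM + 0.5). The text names the members, their other arms, miRNAs with a member's seed, the 3 most alike per member and 2 context lists. Members and lists were chosen with earlier results of these data known. Same-numbered libraries did not deviate together (correlations -0.180 to 0.245), so no block was used.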

Additional observations from a re-analysis of the deposited data

How the results depend on the processing

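miR-96-5p had a positive pre-treatment log2FC under every alternative run. It was called with DESeq2 (1.28, FDR 0.0439), library size scaling, RLE scaling, a CPM limit passed in all libraries and the joint fit of all groups. It was not called by the quasi-likelihood test (1.31), without a filter (1.46), or over miRNAs averaging 5 CPM or more without (1.14) and with a GC offset (0.82), settings chosen after seeing the data because miR-96-5p is below the mean CPM of 10 that the planned GC fits needed. Leaving out 1 library gave 1.31 to 1.39. Its co-treatment log2FC turned positive with DESeq2 (0.016), library size (0.069), RLE (0.016), no filter (0.023), the limit in all libraries (0.15), the joint fit (0.12) and the fits at CPM 5 without (0.17) and with the offset (0.60), and ran from -0.13 to 0.15 with 1 library left out. Its difference between experiments passed with RLE scaling (1.25, FDR 0.0477) and DESeq2 (1.25, FDR 0.0499), and ran from 0.93 to 1.22 with 1 library left out.

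The co-treatment log2FC of miR-182-5p turned positive with the GC offset (0.31 at CPM 10, 0.28 at CPM 5) and ran from -0.34 to 0.073 with 1 library left out. That of miR-183-5p was called with the offset (0.92 and 0.89) and ran from 0.22 to 0.49. In pre-treatment miR-183-5p turned negative with the limit in all libraries (-0.053), the joint fit (-0.014) and the fits without (-0.13 at CPM 10, -0.055 at CPM 5) and with the offset (-0.29 and -0.28), and ran from -0.18 to 0.47, while miR-182-5p ran from -0.076 to 1.03. Differences between experiments ran from 0.034 to 1.15 for miR-182-5p (1.15, FDR 0.0320, without pre-treatment control 2) and from -0.65 to 0.0063 for miR-183-5p. The co-treatment log2 ratio of miR-96-5p to miR-182-5p ran from -0.20 (without control 3) to 0.48. Likeness changed with library size scaling, to 0.23 between miR-96-5p and miR-182-5p and 0.18 between miR-96-5p and miR-183-5p, and with centring on groups, to -0.72, -0.73 and, between miR-182-5p and miR-183-5p, 0.88. The summed level in pre-treatment ran from -0.076 to 0.85 and that of the shared seed was 1.04 without control 1. The cause of these changes was not tested.

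Counts of calls moved more than the members did. Co-treatment calls were 90 of 764 in the joint fit, and 126 without and 24 with the GC offset of 363 at CPM 10. They were 26 of 436 with the offset at CPM 5, and leaving out 1 library gave 98 to 279. Pre-treatment calls were 17 by the quasi-likelihood test (254 at an unadjusted p below 0.05), 61 without a filter, 52 without and 41 with the offset at CPM 10, 59 and 29 at CPM 5, and 9 to 449 with 1 library left out (285 without control 1, 449 without control 2). With replicate number as a block the quasi-likelihood calls were 111 and 15, and with the block and GC offset 0 and 0 (82 and 53 at an unadjusted p below 0.05). With the block, miR-96-5p had 1.38 in pre-treatment (FDR 0.357), and with block and offset miR-182-5p had 0.31 in co-treatment and miR-183-5p 0.90 (FDR 0.148) and -0.26. miR-96-5p had 22 to 84 counts a library, and miR-183-3p, with at most 2, was not tested.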
